A study of Mus musculus with 12 samples.

Results

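The response of the lung to chronic hypoxia was examined in mice that had lost Nfat5 from endothelial cells. It rests on 6 of the 12 arrays of the study, chosen by their labels as the 3 hypoxic and the 3 normoxic lungs of the genotype Nfat5(EC)-/-, and on all 24704 genes that could be tested. The study measured RNA of whole lung on Affymetrix arrays in this genotype and in control mice (Nfat5fl/fl), each in normoxia and hypoxia, with 3 arrays per group. Male and female mice of 10 to 12 weeks were used. Every mouse carried floxed Nfat5. The knockout mice received 1 mg of tamoxifen per day for 5 days and the control mice only the solvent miglyol, so between genotypes deletion and tamoxifen cannot be told apart. After 2 to 3 weeks of recovery the hypoxic groups were kept in hypoxia for 21 days, and lungs were perfused with cold Ringer solution before lysis. The sources used here do not name the Cre driver, the oxygen level or the hour of tissue collection.

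The submitters planned 4 mice per group and state that they dropped lungs in which other tissue (thymus is their example) was found and those they judged to respond too little to hypoxia in their transcripts. The hypoxia comparison is therefore made on animals selected in part by the outcome it measures. The 3 arrays of a group were taken as 3 mice, because the design counts mice. The normoxic knockout arrays carry the replicate numbers 1, 2 and 4 and the hypoxic ones 2, 3 and 4, and values by array are given in that order.

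NFAT5 is a transcription factor of the Rel family that is best known for switching on genes of osmolyte uptake and synthesis in cells under salt stress. Long exposure of mice to hypoxia remodels the lung: muscle spreads along small arteries, matrix is laid down in their walls, the capillary endothelium changes its transcripts and the pressure in the pulmonary artery rises. Oxygen sensing by the HIF factors, the circadian clock and glucocorticoid signalling all act on the lung's transcripts.

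Expression is given as the deposited log2 values, so a difference of 1 is a doubling. Arrays of a knockout group correlated with r from 0.991 to 0.994, and the median gene had an SD of 0.12 among the 3 arrays of either group. The lung markers were high on all 6 arrays. Sftpc, the surfactant protein of alveolar type 2 cells, was at 13.44 on each of them. Sorted values were identical on all arrays, so the equal values of Sftpc reflect its rank and do not measure an equal amount. Pecam1, an adhesion molecule of endothelial cells, lay between 11.44 and 11.65. Rag1 and Rag2, which recombine receptor genes in developing thymocytes, lay between 2.89 and 3.55, near the lower end of the value range, which starts at 2.41.

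The normoxic knockout arrays differed among themselves in heart and fat transcripts. Nppa, the atrial natriuretic peptide, was at 8.05, 11.94 and 9.41 in normoxia and at 7.27, 6.60 and 7.03 in hypoxia. The mean of the 16 heart muscle markers was 6.08, 7.74 and 6.86 in normoxia against 5.54, 6.05 and 5.82 in hypoxia, so the groups did not overlap (exact permutation test, two-sided p = 0.1, the smallest that 3 against 3 arrays allow). Ucp1, the uncoupling protein of brown fat, was at 9.31 on normoxic replicate 2 and between 3.34 and 3.97 on the other 5 arrays. Y-linked transcripts were high on normoxic replicates 2 and 4 and on hypoxic replicate 2, so males and females were not spread evenly over the groups. No heart, brown fat, adipose, skeletal muscle or thymus marker passed limma's test described below, while 12 of the 16 heart markers lay lower in hypoxia at an unadjusted p under 0.05. Without normoxic replicate 1, the lowest normoxic array in these genes, 5 heart markers were called as lower, Nppa among them. The lead counts below are given with and without the 2 normoxic arrays with the highest Nppa, an alternative added after seeing the data. This pair, replicates 2 and 4, also holds the high Y-linked transcripts of the group. Replicate 1, the array left, had the lowest difference between the clock genes Dbp and Arntl (-0.10, against 1.01 and 1.81). The alternative thus does not change heart tissue alone.

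**Figure D1:**
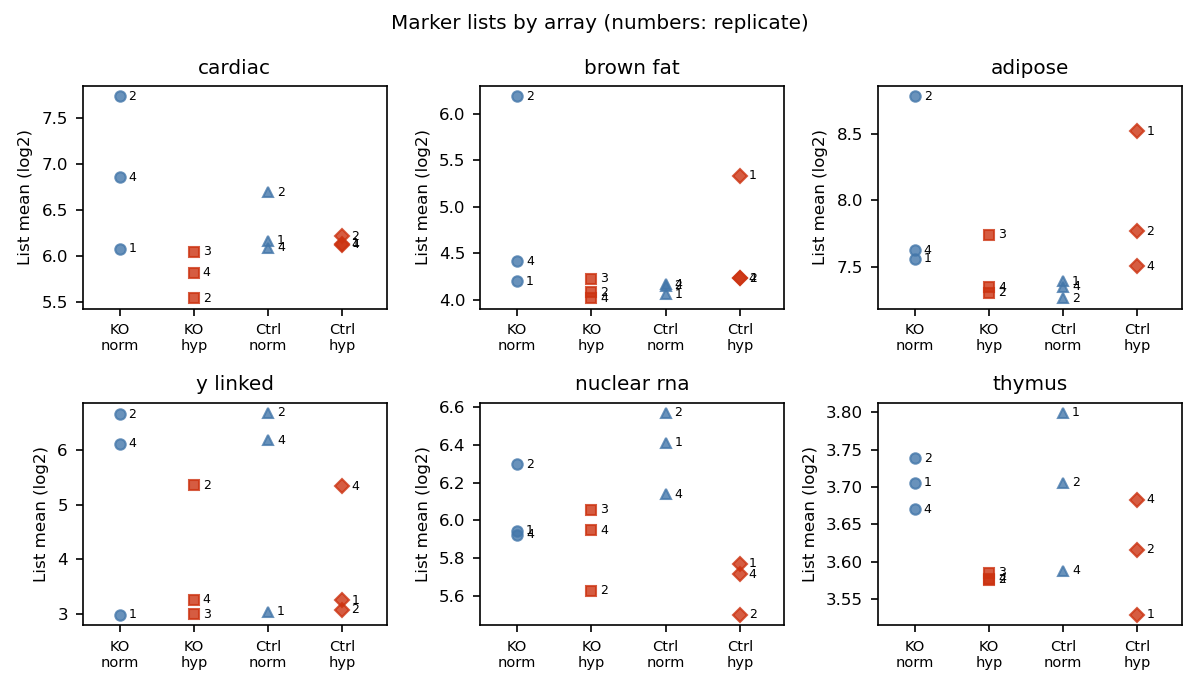
Mean log2 expression of 6 marker lists on each of the 12 arrays, by group (KO, knockout; Ctrl, control; norm, normoxia; hyp, hypoxia), with the replicate number beside each point. The heart markers were highest on normoxic knockout replicate 2 (7.74), followed by replicate 4 (6.86), and brown fat markers were highest on replicate 2 (6.19), followed by hypoxic control replicate 1 (5.33).

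Chronic hypoxia changed 282 of 24704 genes in knockout lungs (1.14%), of which 158 rose (0.64%) and 124 fell (0.502%). The call is an adjusted p under 0.05, with limma over all 12 arrays and Benjamini-Hochberg adjustment over all genes, and errors of log2 changes are limma's standard errors. At least a 2-fold change was measured for 40 of the genes that rose (0.162%) and 25 of those that fell (0.101%). In 4901 genes (19.8%) the 3 hypoxic and the 3 normoxic arrays did not overlap, and this held for all 282 called genes. At an unadjusted p under 0.05 limma gave 3124 genes (12.6%) in either direction, the share to set beside such counts in the lists. The lists with the largest share of called members were clock output, core clock, lymphatic, B cell and glucocorticoid-induced genes, followed by capillary markers. In these bulk samples fewer cells of a type and less RNA per cell cannot be told apart.

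The number of calls depended on single arrays. Without hypoxic replicate 2, 3 or 4 it was 137, 148 or 80, and without normoxic replicate 1, 2 or 4 it was 139, 71 or 130. Without normoxic replicates 2 and 4 together, the pair with high Nppa, 11 genes were called, which leaves normoxic replicate 1 as the only normoxic knockout array. With the heart marker mean of each array as a covariate 11 genes were called. All 282 changes kept their sign under each of these settings. Leaving out arrays could not have turned a sign, because the groups of these genes do not overlap. The median size was 0.96 times the original without the pair and 0.92 times with the covariate. The part of heart tissue in the results was not tested beyond these values. Of the 76 called genes that the rule for named genes picked, 28 stayed called when any 1 of the 6 knockout arrays was left out, and their calls are said to have held. The other 48 lost the call without at least 1 array, and without normoxic replicate 2 and without hypoxic replicate 4 the most.

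The largest increase among the called genes was that of Ntrk2, which encodes the neurotrophin receptor TrkB. Ntrk2 was at 4.20, 4.79 and 4.65 in normoxia and at 7.28, 7.52 and 7.79 in hypoxia. It is on the list of general capillary markers, but its normoxic values lay near the array median of 4.55. Of the 12 members of that list 10 had a change below 0, so the rise of Ntrk2 does not stand for the list. All hypoxic arrays lay over 2 log2 units above all normoxic ones, and the change was 2.98 ± 0.19 (SE, n = 3 and 3; 7.90-fold, adjusted p = 3.9e-05). Cdk19, a kinase of the Mediator complex, went from 8.61, 8.39 and 8.54 to 10.11, 10.24 and 10.34. It had the smallest error among the largest increases, at 1.71 ± 0.10 (adjusted p = 3.9e-05). Npy1r, a receptor for the vasoconstrictor neuropeptide Y, was at 5.22, 4.77 and 4.84 in normoxia and at 6.56, 6.75 and 6.47 in hypoxia. Its change was 1.65 ± 0.14 (adjusted p = 0.00029), with no overlap between groups. These 3 genes were still called without the pair of normoxic arrays with high Nppa (adjusted p = 0.0033, 0.013 and 0.042).

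Adam23, a membrane protein that binds integrins, showed a wider spread in hypoxia. It was at 5.08, 4.40 and 4.57 in normoxia and at 6.04, 7.15 and 6.88 in hypoxia, and hypoxic replicate 2 lay closest to the normoxic arrays. The change was 2.01 ± 0.27 (adjusted p = 0.0072). Fam107a, an actin-binding protein of stress responses, also changed by 2.01, with an SE of 0.22 (adjusted p = 0.0027), from 5.32, 5.31 and 5.45 to 7.07, 7.39 and 7.66. Slc26a10, a member of the anion transporter family, rose by 1.73 ± 0.21 (adjusted p = 0.0051), Itih4, a serum protease inhibitor, by 1.43 ± 0.27 (adjusted p = 0.031), and Tmem200b, a membrane protein, by 1.37 ± 0.16 (adjusted p = 0.0043). The calls of Fam107a, Adam23, Slc26a10 and Tmem200b held, whereas that of Itih4 was lost without any 1 of the 6 arrays. None of these 5 was called without both normoxic arrays with high Nppa, where their changes were 2.05, 1.61, 1.34, 1.30 and 1.27.

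Among the largest decreases were transcripts of capillary endothelium and leukocytes. Plvap, which forms the diaphragms of capillary fenestrae and caveolae, went from 10.74, 10.53 and 10.91 to 9.15, 9.30 and 9.67. All hypoxic arrays lay below all normoxic ones, at -1.35 ± 0.20 (adjusted p = 0.01). Igfbp3, a carrier of insulin-like growth factors, fell from 8.92, 8.18 and 8.52 to 7.10, 7.23 and 7.39. Its change of -1.30 ± 0.17 (adjusted p = 0.0057) was -1.68 without the pair with high Nppa and still called (adjusted p = 0.03). Adgre4, an adhesion receptor of monocytes and macrophages, fell by 1.25 ± 0.17 (adjusted p = 0.0072), and Prkcb, a protein kinase C form prominent in B cells, by 1.19 ± 0.11 (adjusted p = 0.00082). These were called without the pair too (adjusted p = 0.047 for each). Il1b, the interleukin 1 beta gene, was at 6.40, 6.73 and 6.36 in normoxia and 5.46, 4.63 and 4.85 in hypoxia, a change of -1.51 ± 0.20 (adjusted p = 0.0071). The remaining named decreases were Fam124b at -1.48, Ifi209, an interferon-inducible gene, at -1.42, Trbj1-1, a joining segment of the T cell receptor beta locus, at -1.20 and Ms4a4c at -1.18, with adjusted p from 0.035 to 0.038. The calls of Plvap, Igfbp3, Adgre4, Prkcb and Il1b held. Ifi209 and Ms4a4c were not called without any 1 of the 6 arrays, and Fam124b and Trbj1-1 stayed called only without hypoxic replicate 3.

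**Figure D2:**
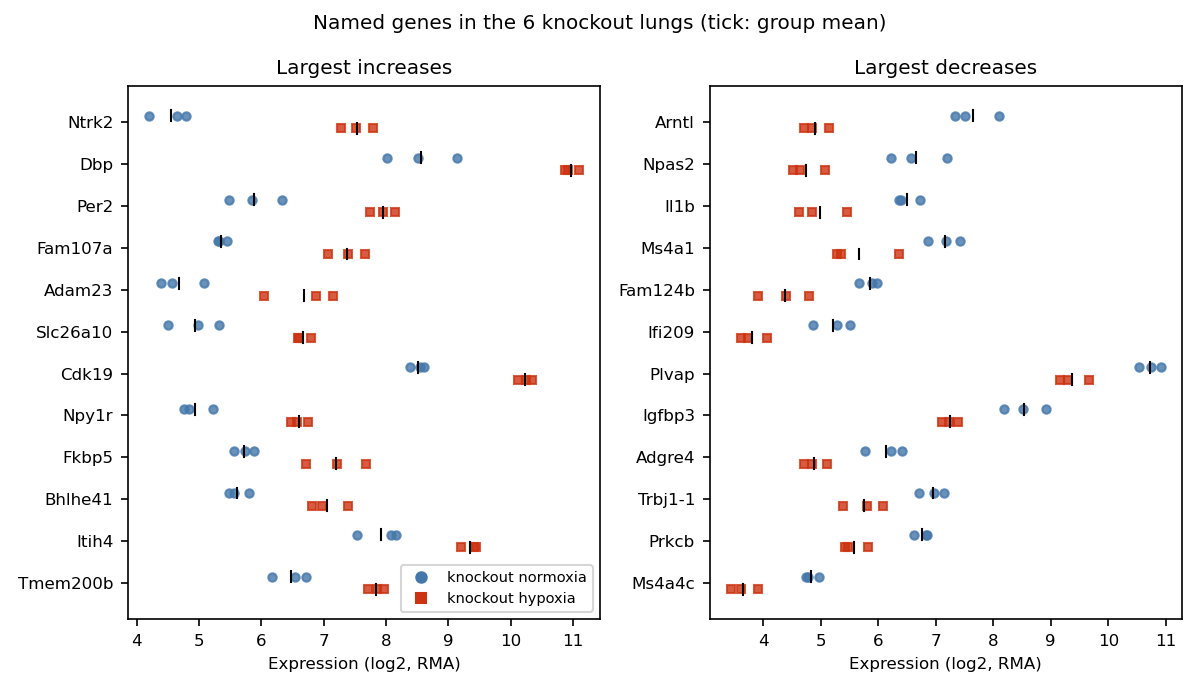
Log2 expression of the 12 genes with the largest called increases (left) and decreases (right), leaving out predicted genes, clones and small noncoding RNAs, on the 3 normoxic (circles) and 3 hypoxic (squares) knockout arrays, with a tick at each group mean. Genes were plotted only where the groups do not overlap, which was so for 19.8% of all genes. Ntrk2 shows the widest gap, from 4.79 at most in normoxia to 7.28 at least in hypoxia.

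The circadian clock is a loop in which ARNTL (BMAL1) pairs with CLOCK or NPAS2 at E-box DNA elements and drives the Per, Cry, Dbp, Tef and Ciart genes, whose products in part repress the pair. REV-ERB and ROR receptors act on Arntl through ROR elements, and DBP, TEF and HLF bind D-boxes. Of 11 core clock genes measured, 4 rose and 2 fell in knockout lungs, with a median change of 0.57, and of 10 output regulators 7 rose and none fell, with a median of 1.26. Over all genes the median change was 0.0033. The positive arm lay low and the negative and output arms lay high in hypoxia. With 1 knockout array left out, 1 to 3 core genes, Arntl each time, and 3 or 4 output genes were called, and without the pair with high Nppa only Ciart was, while the output median was 1.39.

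Promoter windows of 5 clock genes are shown to place these elements next to the measured changes. They come from RefSeq on GRCm38.p6, run from 250 bases before to 50 after the gene's start, and read in the gene's direction. Capitals mark the E-box CACGTG in Ciart, Per1 and Cry1, the D-box TTATGTAA in Per3 and the core of the ROR element, AGGTCA, in Arntl, searched on both strands. Only the element named for a gene is marked in its window. The Per1 window also holds the ROR core, on the other strand and unmarked. The Ciart window lies at chr3:95882179-95882478 on the minus strand and has 3 E-boxes, which begin 116, 58 and 44 bases before the start. Per1, at chr11:69098699-69098998 on the plus strand, has 1 at 166 bases before the start, in 1 of its 2 windows. Cry1, at chr10:85185005-85185304 on the minus strand, has 1 at 60 bases before the start. Per3, at chr4:151044616-151044915 on the minus strand, has 2 D-boxes, 205 and 158 bases before the start. In Arntl, at chr7:113207261-113207560 on the plus strand, the ROR core begins 31 bases past the start, in 1 of its 2 windows.
Ciart: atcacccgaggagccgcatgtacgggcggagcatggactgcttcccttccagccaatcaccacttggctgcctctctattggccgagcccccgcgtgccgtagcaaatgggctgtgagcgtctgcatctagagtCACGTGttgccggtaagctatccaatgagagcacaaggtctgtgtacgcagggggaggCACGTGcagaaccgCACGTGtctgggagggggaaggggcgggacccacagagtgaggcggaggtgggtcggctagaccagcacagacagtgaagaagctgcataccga
Per1: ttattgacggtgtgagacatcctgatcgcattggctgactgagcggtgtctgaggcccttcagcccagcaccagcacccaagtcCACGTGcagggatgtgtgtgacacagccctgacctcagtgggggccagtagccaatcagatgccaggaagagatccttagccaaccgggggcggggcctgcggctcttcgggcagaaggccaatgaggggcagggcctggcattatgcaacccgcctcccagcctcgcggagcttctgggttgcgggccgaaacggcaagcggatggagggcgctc
Cry1: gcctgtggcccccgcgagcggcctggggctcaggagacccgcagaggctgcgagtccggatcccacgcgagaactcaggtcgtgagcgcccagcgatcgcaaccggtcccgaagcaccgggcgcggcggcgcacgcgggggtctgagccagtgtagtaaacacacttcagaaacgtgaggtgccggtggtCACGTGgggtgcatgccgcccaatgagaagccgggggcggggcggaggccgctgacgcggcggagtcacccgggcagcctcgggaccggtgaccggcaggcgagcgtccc
Per3: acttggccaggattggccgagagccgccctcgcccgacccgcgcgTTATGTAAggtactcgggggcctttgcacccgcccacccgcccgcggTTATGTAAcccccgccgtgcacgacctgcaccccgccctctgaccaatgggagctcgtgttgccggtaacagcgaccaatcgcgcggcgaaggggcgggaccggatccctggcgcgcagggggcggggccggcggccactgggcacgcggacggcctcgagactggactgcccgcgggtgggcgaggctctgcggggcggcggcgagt
Arntl: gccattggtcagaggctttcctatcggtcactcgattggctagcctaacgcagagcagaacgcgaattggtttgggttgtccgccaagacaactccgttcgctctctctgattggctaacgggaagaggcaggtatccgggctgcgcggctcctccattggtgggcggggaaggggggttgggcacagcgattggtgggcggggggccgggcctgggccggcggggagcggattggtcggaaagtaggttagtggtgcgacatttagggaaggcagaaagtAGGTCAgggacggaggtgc

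Windows were found for 18 of the 22 clock and output genes. The E-box was in 5 of them (27.8%), in Ciart, Per1, Cry1, Tef and Bhlhe41. It was in 9.08% of the 18383 tested genes with a window and in 7.15% of all 32851 windows. Of the 123 genes that rose in hypoxia and had a window, 25 (20.3%) had an E-box, and of the 85 that fell, 7 (8.24%) did. The 25 include the 5 clock and output genes just named, so these shares are not separate observations. The D-box was in 0.938% of all windows and the ROR core in 16.3%. Of the 18 clock and output genes with a window, 1 (5.56%) had a D-box and 5 (27.8%) the ROR core, in Arntl, Clock, Per1, Nr1d2 and Nfil3. The ROR core was in 16.7% of the tested genes with a window. A match describes these letters in this window and is not evidence of a bound site.

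Arntl was at 8.11, 7.51 and 7.34 in normoxia and at 5.13, 4.71 and 4.84 in hypoxia. The lowest normoxic array stood 2 log2 units above the highest hypoxic one, and the change was -2.75 ± 0.33 (adjusted p = 0.005), a call that held. Npas2, the partner of ARNTL that can stand in for CLOCK, went from 7.19, 6.57 and 6.21 to 5.08, 4.51 and 4.64. The change was -1.92 ± 0.39 (adjusted p = 0.045) and was not called when any 1 of the 6 knockout arrays was left out. Clock itself was at 9.59, 9.84 and 9.43 in normoxia and 8.68, 9.14 and 8.75 in hypoxia, a difference of -0.76 ± 0.20 that did not pass (adjusted p = 0.11).

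The period genes, which encode repressors of the clock, rose. Per2 was at 5.48, 5.85 and 6.33 in normoxia and at 7.75, 8.15 and 7.95 in hypoxia, without overlap. Its change was 2.06 ± 0.34 (adjusted p = 0.015). Per2 and Per1 stayed called without hypoxic replicate 2 or normoxic replicate 4 and lost the call without any of the other 4 arrays. Per1 went from 8.38, 8.75 and 9.16 to 9.64, 10.11 and 10.18, a change of 1.21 ± 0.23 (adjusted p = 0.034). Per3 changed by 1.34 ± 0.27 (adjusted p = 0.041) and Cry1, the cryptochrome repressor, by 0.63 ± 0.12 (adjusted p = 0.035). Both calls were lost whichever 1 of the 6 knockout arrays was left out. Of the receptors that repress Arntl, Nr1d1 (REV-ERB alpha) differed by 0.57 ± 0.23 (adjusted p = 0.31) and Nr1d2 (REV-ERB beta) by 0.81 ± 0.22 (adjusted p = 0.12), both short of the test.

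Dbp, a D-box activator driven by the clock, was at 8.01, 8.52 and 9.14 in normoxia and at 11.09, 10.92 and 10.88 in hypoxia. The hypoxic arrays lay close together while the normoxic ones spanned over 1 log2 unit. The change was 2.41 ± 0.41 (adjusted p = 0.019) and stayed called only without normoxic replicate 4. Ciart, a repressor of ARNTL and the gene with 3 E-boxes above, went from 5.99, 6.15 and 6.04 to 7.22, 7.50 and 7.41. It was the most precise of the output genes, at 1.32 ± 0.11 (adjusted p = 0.00029), and remained called without the pair with high Nppa (adjusted p = 0.042). Bhlhe41 (DEC2) rose by 1.44 ± 0.30 (adjusted p = 0.046) and Bhlhe40 (DEC1), its close relative, by 1.02 ± 0.15 (adjusted p = 0.0088). Usp2, a deubiquitinase under clock control, rose by 0.98 ± 0.14 (adjusted p = 0.0085), Tef, a D-box factor, by 1.20 ± 0.22 (adjusted p = 0.029) and Wee1, a kinase that restrains mitosis, by 1.32 ± 0.24 (adjusted p = 0.027). The calls of Ciart, Usp2 and Bhlhe40 held. Those of Bhlhe41 and Tef were lost whichever knockout array was left out, and that of Wee1 remained only without hypoxic replicate 2. Hlf, another D-box activator, differed by 1.35 ± 0.30 (adjusted p = 0.061).

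The order of the normoxic arrays was the same in several of these genes, with Arntl and Npas2 highest and Per1, Per2 and Dbp lowest on replicate 1, and the reverse on replicate 4. With the difference between Dbp and Arntl of each array as a covariate, an alternative chosen after seeing the data, 0 of 24704 genes were called and 16 of the 282 changed sign. In that fit the median ratio of the 282 changes to their original values was 0.96. At an unadjusted p under 0.05 limma left 1458 genes in it. The difference ran from -0.10 to 1.81 on the normoxic and from 5.96 to 6.21 on the hypoxic knockout arrays, so clock phase and hypoxia cannot be told apart in these 6 arrays.

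**Figure D3:**
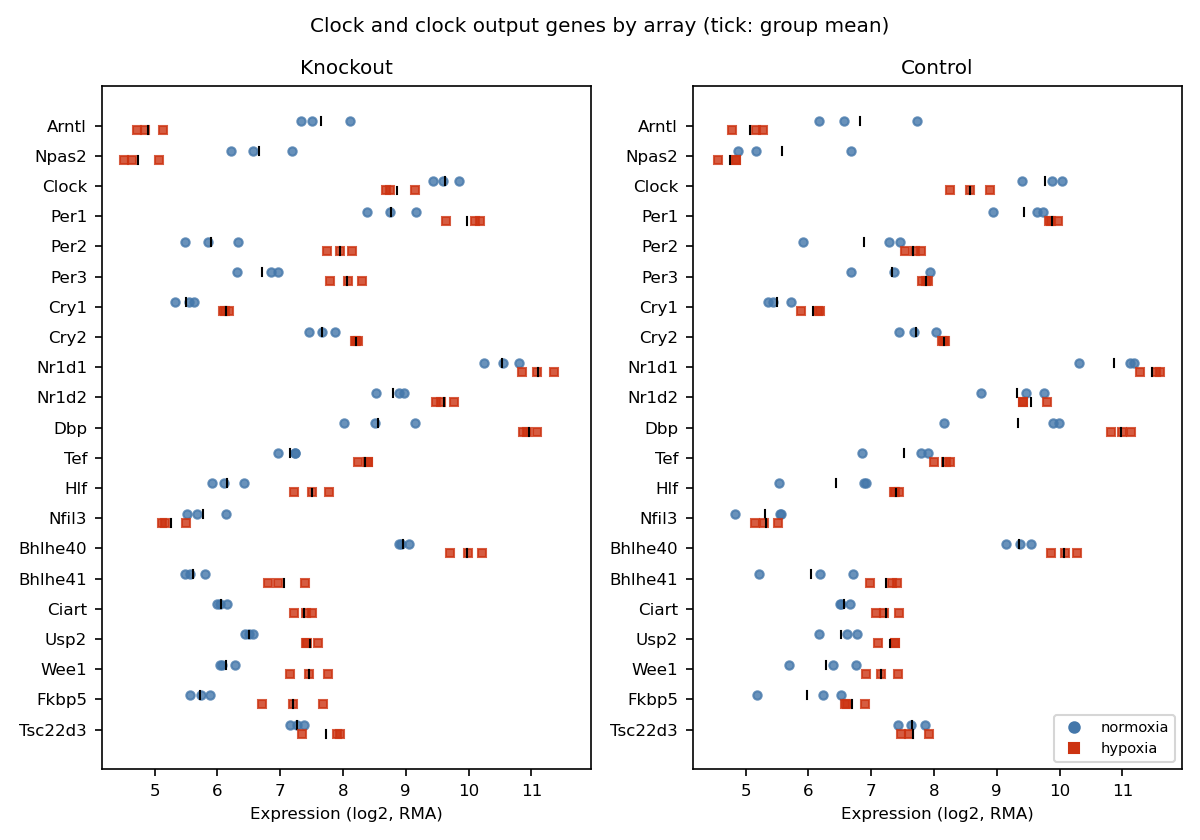
Log2 expression of 19 clock and output genes and of Fkbp5 and Tsc22d3 on the normoxic (circles) and hypoxic (squares) arrays of knockout (left) and control (right) lungs, with a tick at each group mean. In knockout lungs Arntl and Npas2 lie lower in hypoxia and Per2, Dbp and Ciart higher without overlap, while the normoxic control arrays are more spread for Per2 and Dbp.

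Of 12 genes induced by glucocorticoids 5 rose in knockout lungs and none fell, with a median change of 0.73. Fkbp5, a chaperone of the glucocorticoid receptor, was at 5.56, 5.73 and 5.89 in normoxia and at 6.71, 7.21 and 7.68 in hypoxia. The groups did not overlap, and the change was 1.47 ± 0.31 (adjusted p = 0.046). The metallothioneins, which bind zinc and copper, both rose, Mt2 by 1.05 ± 0.16 (adjusted p = 0.011) and Mt1 by 0.59 ± 0.12 (adjusted p = 0.04). Lcn2, a siderophore-binding protein, rose by 1.02 ± 0.18 (adjusted p = 0.021), and the fifth gene was Per1. Tsc22d3 (GILZ), a widely used target of the receptor, was at 7.38, 7.16 and 7.27 in normoxia and 7.34, 7.94 and 7.91 in hypoxia. Its groups overlapped, and the difference of 0.46 ± 0.17 did not pass (adjusted p = 0.27). Without hypoxic replicate 4 or normoxic replicate 2 none of the 12 was called, and without 1 of the other 4 arrays 1 to 3 were.

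In the endothelium, capillary markers lay lower in hypoxia. Of 9 aerocyte markers 3 fell and none rose, with a median of -0.35, and 8 of the 9 were below 0. Of 12 general capillary markers 3 fell and 1, Ntrk2, rose, with a median of -0.42. Ednrb, the endothelin B receptor that clears endothelin, was at 9.62, 9.70 and 9.92 in normoxia and at 8.94, 9.07 and 8.91 in hypoxia, a change of -0.77 ± 0.12 (adjusted p = 0.011) with no overlap. Bmp6, a ligand of the BMP pathway, went from 9.63, 9.74 and 10.16 to 8.56, 8.78 and 8.81, a change of -1.12 ± 0.15 (adjusted p = 0.006). Cyp4b1, a cytochrome P450 enzyme, fell by 0.52 ± 0.09 (adjusted p = 0.023) and Hilpda, a lipid droplet protein, by 0.79 ± 0.14 (adjusted p = 0.026). Bmp6 held its call, Ednrb lost it only without hypoxic replicate 4, and Cyp4b1 and Hilpda lost it without 5 of the 6 arrays.

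Of 20 pan-endothelial markers 3 fell and 1 rose, and their median was -0.06. Kdr, the main VEGF receptor and also on the aerocyte list, was at 11.01, 10.94 and 11.18 in normoxia and at 10.38, 10.47 and 10.47 in hypoxia, a change of -0.60 ± 0.09 (adjusted p = 0.0085). Tek (TIE2), the angiopoietin receptor, fell by 0.51 ± 0.08 (adjusted p = 0.013) and Eng (endoglin), a TGF-beta co-receptor mutated in hereditary telangiectasia, by 0.61 ± 0.12 (adjusted p = 0.037). Emcn (endomucin), a surface mucin of capillaries and veins, rose from between 8.94 and 9.12 on the normoxic arrays to between 9.55 and 9.86 on the hypoxic ones, or by 0.71 ± 0.10 (adjusted p = 0.0085). Pecam1 differed by -0.09 ± 0.08 (adjusted p = 0.74). The calls of Kdr and Emcn held. Tek was called without hypoxic replicate 4 or normoxic replicate 1 or 2, and Eng was not called without any 1 of the 6 arrays.

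Among 23 angiogenic ligands and receptors 4 rose and 3 fell. The ligands Vegfc, from 6.77, 6.61 and 6.55 to 7.75, 7.45 and 7.55, and Vegfd, which both act on lymphatic vessels, rose by 0.94 ± 0.14 (adjusted p = 0.0097) and 0.69 ± 0.10 (adjusted p = 0.01). Pgf (placental growth factor) rose by 1.10 ± 0.21 (adjusted p = 0.036) and Hey2, a Notch target, by 0.58 ± 0.12 (adjusted p = 0.045). Dll4, the arterial and tip cell Notch ligand, went from 8.73, 8.39 and 8.93 to 7.56, 7.52 and 7.87, a change of -1.03 ± 0.14 (adjusted p = 0.0072). The ligands of lymphatic growth and placental growth factor thus lay higher while Dll4, Kdr and Tek lay lower. Vegfa, the main VEGF ligand and a HIF target, was at 11.56, 11.57 and 11.56 in normoxia and 11.28, 11.40 and 11.17 in hypoxia, a difference of -0.28 ± 0.09 that did not pass (adjusted p = 0.2). Without normoxic replicate 2 the 3 decreases were called and none of the 4 increases, and without hypoxic replicate 4 only 1 increase was. The call of Dll4 held, and that of Hey2 was lost whichever array was left out.

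Of 6 lymphatic endothelial markers 2 rose and 1 fell. Reln (reelin) was at 4.79, 4.65 and 5.11 in normoxia and at 6.33, 5.94 and 6.30 in hypoxia, and rose by 1.34 ± 0.17 (adjusted p = 0.0051). Mmrn1 (multimerin 1), also made by platelets, rose by 0.98 ± 0.10 (adjusted p = 0.0022), and both genes were called when any 1 knockout array was left out. Prox1, the transcription factor that defines these cells, was at 3.71, 4.16 and 3.85 in normoxia and at 5.25, 4.32 and 4.98 in hypoxia, a difference of 0.94 ± 0.21 that missed the test (adjusted p = 0.059). Lyve1, a hyaluronan receptor shared with some macrophages, went the other way, from 10.72, 10.62 and 10.80 to 10.01, 9.80 and 9.78, or by -0.85 ± 0.14 (adjusted p = 0.018), a call that remained only without hypoxic replicate 2.

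Of 24 vasoactive genes 1 rose and 2 fell. Nos3, the endothelial nitric oxide synthase, went from 5.83, 5.91 and 6.18 to 6.73, 6.46 and 6.65 and rose by 0.64 ± 0.11 (adjusted p = 0.015). Ptgs2 (cyclooxygenase 2), which starts prostanoid synthesis, fell by 1.10 ± 0.17 (adjusted p = 0.01), beside Ednrb above. Without hypoxic replicate 4 none of the 24 was called, and without normoxic replicate 2 only Ednrb was. The call of Nos3 remained without hypoxic replicate 3 or normoxic replicate 4 and that of Ptgs2 was lost without hypoxic replicate 4 or normoxic replicate 2. Edn1, the vasoconstrictor endothelin 1, was at 8.48, 8.35 and 8.32 in normoxia and 8.04, 8.24 and 8.02 in hypoxia. Its difference of -0.28 ± 0.15 did not pass (adjusted p = 0.49). Npr3, the clearance receptor for natriuretic peptides, was at 8.61, 8.04 and 8.39 against 7.14, 7.92 and 7.11, with hypoxic replicate 3 close to the normoxic range, and did not pass (-0.96 ± 0.27, adjusted p = 0.13).

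Of 20 genes of heritable pulmonary hypertension and vascular growth factors, Cxcl12 rose while Kdr and Eng fell. Cxcl12, a chemokine that recruits mural cells and leukocytes, went from 8.84, 8.40 and 9.01 to 9.71, 9.57 and 9.65, a change of 0.89 ± 0.14 (adjusted p = 0.011) that was lost only without hypoxic replicate 4. Bmpr2, the receptor most often mutated in heritable pulmonary arterial hypertension, was at 10.61, 11.13 and 10.80 in normoxia and at 9.68, 10.42 and 10.30 in hypoxia. The groups did not overlap, but the difference of -0.71 ± 0.21 did not pass (adjusted p = 0.15). Pdgfb, a growth factor for smooth muscle and pericytes, differed by -0.14 ± 0.15 (adjusted p = 0.81). In the wider BMP and TGF-beta list of 23 genes Tgfbr2, the type 2 TGF-beta receptor, rose by 0.39 ± 0.08 (adjusted p = 0.041), a call lost without any 1 of the 6 arrays, and Bmp6 fell. Smad6, an inhibitor of BMP signalling, differed by -0.74 ± 0.16 (adjusted p = 0.057).

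Of 31 noncollagen matrix proteins and enzymes 7 rose and none fell, with a median of 0.33. Mfap5, a microfibril protein of elastic fibres, was at 8.04, 7.88 and 7.90 in normoxia and at 9.02, 8.70 and 9.02 in hypoxia and rose by 0.98 ± 0.11 (adjusted p = 0.004). Mfap4, another microfibril protein, rose by 0.59 ± 0.09 (adjusted p = 0.012), Timp3, an inhibitor of metalloproteinases bound to matrix, by 0.47 ± 0.08 (adjusted p = 0.021) and Mmp2, a gelatinase, by 0.92 ± 0.18 (adjusted p = 0.041). The other called members were Ltbp2 at 1.04, Fn1 (fibronectin) at 0.66 and Fbln5 at 0.43, each with an adjusted p of 0.046. Without any 1 knockout array between 1 and 3 of the 31 were called, with the fewest without hypoxic replicate 4, normoxic replicate 2 or normoxic replicate 4, and Mfap5 was called each time.

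None of 20 collagen genes passed limma's test. Their median was 0.24, and 18 of them were above 0. At an unadjusted p under 0.05 limma gave 6 of the 20 as higher and 0 as lower, against 12.6% of all genes in either direction. Col1a2, a chain of type I collagen, was at 9.36, 9.16 and 9.18 in normoxia and at 9.48, 9.50 and 9.94 in hypoxia, with hypoxic replicate 4 highest. Its difference was 0.41 ± 0.13 (adjusted p = 0.18). Col4a1 and Col4a2, chains of basement membrane collagen, differed by 0.45 ± 0.15 (adjusted p = 0.22) and 0.51 ± 0.16 (adjusted p = 0.17). Tnc (tenascin C), a matrix protein of remodelled arteries, was at 6.52, 5.51 and 5.35 against 6.12, 6.35 and 7.37, so its groups overlapped, and it differed by 0.82 ± 0.34 (adjusted p = 0.33).

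None of 17 smooth muscle genes was called by limma, 4 had an unadjusted p under 0.05 (2 in each direction), and their median was -0.04. Myl9, a regulatory light chain of smooth muscle myosin, was at 8.61, 8.58 and 8.64 in normoxia and 9.14, 9.05 and 9.18 in hypoxia, a difference of 0.52 ± 0.14 (adjusted p = 0.11). Pln (phospholamban), also abundant in heart, was at 8.04 on normoxic replicate 2 and differed by -1.45 ± 0.56 (adjusted p = 0.29), and by -0.15 without the pair with high Nppa. None of 11 pericyte markers was called (median 0.25, 5 higher at an unadjusted p under 0.05), and Lamc3, a laminin chain, came closest with 0.70 ± 0.15 (adjusted p = 0.056). Of 15 fibroblast markers 3 rose, Mfap5, Mfap4 and Cthrc1, the last a collagen triple helix repeat protein, by 0.61 ± 0.11 (adjusted p = 0.024), and the list median was 0.13. Without hypoxic replicate 4, normoxic replicate 2 or normoxic replicate 4 only Mfap5 was called of them.

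Of the 20 genes on the list of those commonly induced through HIF only Ndrg1 passed. This stress-responsive gene went from 7.83, 7.70 and 7.86 to 8.92, 8.42 and 8.61, by 0.86 ± 0.13 (adjusted p = 0.011). Hilpda (hypoxia-inducible lipid droplet-associated), called as lower above, is not on that list, so the count holds for its members only. Of 14 glycolytic genes only Pfkfb3, which makes the activator of phosphofructokinase, rose, by 0.76 ± 0.15 (adjusted p = 0.037). The list medians were 0.09 and 0.05, and 5 of the 20 (3 higher, 2 lower) and 4 of the 14 (all higher) had an unadjusted p under 0.05. Slc2a1 (GLUT1) differed by 0.08 ± 0.11 (adjusted p = 0.87). Epas1 (HIF-2 alpha), the HIF subunit most abundant in endothelium, was at 12.33, 12.39 and 12.55 in normoxia and at 11.62, 11.90 and 11.76 in hypoxia, and fell by 0.66 ± 0.09 (adjusted p = 0.0079). It was the only called gene of 10 HIF subunits and oxygen-sensing enzymes. The call of Epas1 held, that of Ndrg1 was lost without hypoxic replicate 4 or normoxic replicate 2, and that of Pfkfb3 remained only without normoxic replicate 4.

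No member passed limma's test among 13 genes of cholesterol synthesis (median 0.28), 14 of fatty acid oxidation (median -0.23), 24 of the respiratory chain (median -0.13), 14 cytosolic ribosomal proteins (median -0.02) or 17 cell cycle genes (median 0.17). At an unadjusted p under 0.05 there were 3, 4, 6, 1 and 3 members of these lists, against 12.6% of all genes. Normoxic replicate 2, the array with heart and brown fat transcripts, was the highest for fatty acid oxidation, with a list mean of 8.50 against 7.77 to 7.87 on the other 5 knockout arrays. Among 19 splicing factors 2 fell, Srsf5 by 0.79 ± 0.16 (adjusted p = 0.038) and Ddx5 by 0.38 ± 0.07 (adjusted p = 0.037). Both calls were lost when any 1 knockout array was left out. At an unadjusted p under 0.05 limma gave 6 of the 19, all lower, and the list median was -0.38. Of 10 nuclear noncoding RNAs none was called (median -0.11, 2 with an unadjusted p under 0.05), and the list mean by array was 5.94, 6.30 and 5.92 in normoxia and 5.63, 6.06 and 5.95 in hypoxia, with overlap (exact permutation test, two-sided p = 0.6). Egr1, an immediate early factor, fell by 1.13 ± 0.18 (adjusted p = 0.011), the only call in 20 such genes. The call was lost only without normoxic replicate 2. Limma gave 8 of the 20 as lower and 0 as higher at an unadjusted p under 0.05, with a list median of -0.26. Osgin1 was the only call among 14 NRF2 genes (0.82 ± 0.13, adjusted p = 0.015) and was lost without 3 of the 6 arrays, hypoxic replicate 2 and normoxic replicates 1 and 2.

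B cell markers lay lower in hypoxia, with all 11 below 0, 5 called and a median of -0.81. Ms4a1 (CD20) was at 6.87, 7.18 and 7.42 in normoxia and at 6.36, 5.36 and 5.29 in hypoxia. Hypoxic replicate 2 lay nearest to the normoxic arrays, and the change was -1.49 ± 0.24 (adjusted p = 0.015). Pax5, the factor that fixes B cell identity, went from 5.30, 5.41 and 5.55 to 4.50, 4.06 and 4.21, a change of -1.16 ± 0.17 (adjusted p = 0.0085). Bank1, a scaffold of B cell signalling, fell by 1.17 ± 0.17 (adjusted p = 0.0097), Cr2, a complement receptor, by 1.00 ± 0.14 (adjusted p = 0.0079) and Cd79b, a chain of the receptor complex, by 0.87 ± 0.18 (adjusted p = 0.045). Between 2 and 6 of the list were called when 1 knockout array was left out, with 2 without normoxic replicate 2 and 2 without hypoxic replicate 4. Pax5 and Cr2 held their calls. None of the list was called without the pair with high Nppa, where its 11 members had a median of -0.61.

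All 10 T cell markers were below 0 and none was called by limma (median -0.44, 5 with an unadjusted p under 0.05). Cd3g, a chain of the T cell receptor complex, differed by -0.88 ± 0.24 (adjusted p = 0.12). Among 11 natural killer markers none was called (median -0.30, 4 with an unadjusted p under 0.05), and among 12 neutrophil markers S100a9 and S100a8, the calprotectin chains, fell by 0.60 ± 0.11 (adjusted p = 0.034) and 0.53 ± 0.11 (adjusted p = 0.046). Both lay between 3.12 and 4.26 on every knockout array, in the low part of the value range, and S100a9 lost its call without any 1 array while S100a8 kept it only without hypoxic replicate 2. Of 8 platelet and 12 monocyte markers none was called, with 1 and 7 at an unadjusted p under 0.05, against 12.6% of all genes.

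Type 2 and macrophage genes moved upward in part. Il33, the alarmin of epithelium and stroma, was at 8.84, 8.89 and 9.02 in normoxia and at 9.73, 9.61 and 9.65 in hypoxia and rose by 0.75 ± 0.11 (adjusted p = 0.0089), a call that held. Chil3, a chitinase-like protein of alveolar macrophages, rose by 0.71 ± 0.13 (adjusted p = 0.032) and Ccl17, a chemokine for type 2 T cells, by 1.28 ± 0.27 (adjusted p = 0.047), which made 3 of 13 in that list. Ctsk, a lysosomal protease, rose by 0.96 ± 0.17 (adjusted p = 0.022), and with Chil3 made 2 of 11 alveolar macrophage markers. Ctsk was called without hypoxic replicate 3 or normoxic replicate 1, Ccl17 only without normoxic replicate 1, and Chil3 lost its call whichever array was left out. Of 18 inflammatory cytokines and chemokines Il33 rose and Il1b and Ptgs2 fell. None of 9 MHC class II genes (median 0.32) or 16 interferon-stimulated genes (median 0.01) was called by limma, with 5 and 2 at an unadjusted p under 0.05.

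In the epithelium 1 of 12 alveolar type 1 and 1 of 12 alveolar type 2 markers rose. Igfbp2, an insulin-like growth factor carrier found in mature type 1 cells, went from 9.50, 9.11 and 9.20 to 10.15, 10.22 and 10.17, a change of 0.91 ± 0.11 (adjusted p = 0.0051) that held. Napsa, a protease that processes surfactant protein B, rose by 0.53 ± 0.11 (adjusted p = 0.046), a call lost when any 1 knockout array was left out. No motile cilium gene of 18 was called, with 17 of them below 0 and a median of -0.12, and no club cell marker of 12 was. At an unadjusted p under 0.05 limma gave 4 cilium and 2 club cell genes, all lower, against 12.6% of all genes in either direction.

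Nfat5 itself was at 8.59, 8.80 and 8.62 in normoxia and at 8.17, 8.46 and 8.40 in hypoxia in knockout lungs, a difference of -0.33 ± 0.15 that did not pass (adjusted p = 0.38). Whole lung holds Nfat5 RNA from cells that were not targeted, so these levels do not measure the endothelial deletion. Of 14 NFAT5 and osmotic response genes 2 rose and none fell, with a median of 0.20. Slc6a6, the taurine transporter, was at 9.79, 9.72 and 9.92 in normoxia and at 10.50, 10.61 and 10.67 in hypoxia, a change of 0.78 ± 0.12 (adjusted p = 0.0093), and Vegfc was the other. Neither was called without normoxic replicate 2, and Slc6a6 was not without hypoxic replicate 4. Hspa1a, an inducible heat shock protein, was at 6.46, 6.16 and 6.79 against 7.64, 7.88 and 7.97, without overlap, and differed by 1.36 ± 0.38 (adjusted p = 0.13).

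**Figure D4:**
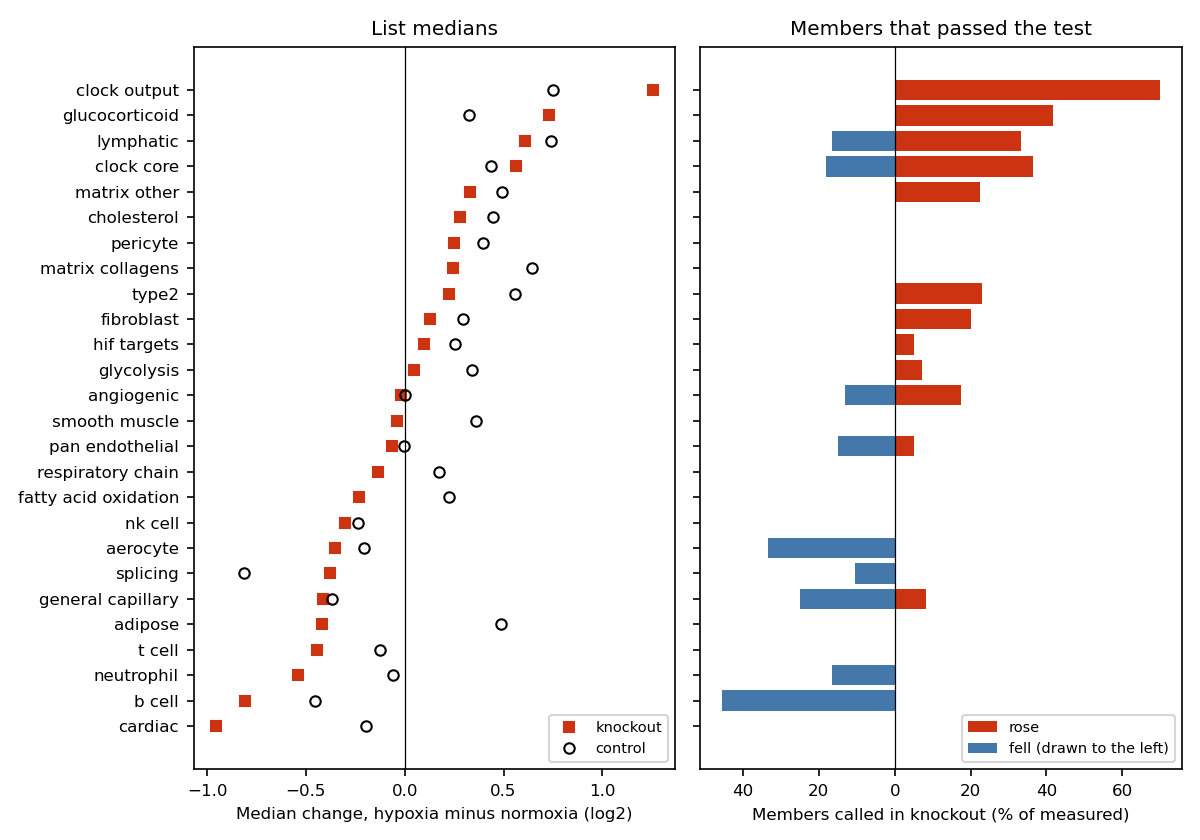
Median log2 change with hypoxia of gene lists in knockout (squares) and control (open circles) lungs (left), and the percent of measured members called in knockout lungs as risen (to the right of 0) or fallen (to the left) (right). Of the lists plotted, clock output has the highest knockout median (1.26) and the largest share of risen members, B cell markers the largest share of fallen ones, and heart markers the lowest median (-0.96) with no called member.

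The same contrast in control lungs called 2839 genes (11.5%), 1323 higher (5.36%) and 1516 lower (6.14%). A count does not test a difference between genotypes, which the interaction below does. Of the 282 genes called in knockout lungs 278 (98.6%) had the same sign in control lungs, against 65.2% of all genes, and 209 were called there as well. The 4 with the opposite sign in control were Dpy19l3, Rps3a2, Maoa and Hmgb1-ps9. Those 209 genes were 74.1% of the knockout calls and 7.36% of the control calls. The median size of the 282 changes was 0.73 in knockout and 0.62 in control lungs, but these genes were chosen by their knockout values. In the other direction, 2607 of the 2839 control calls (91.8%) had the same sign in knockout lungs, with a median size of 0.27 there and 0.60 in control, where they were chosen.

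**Figure D5:**
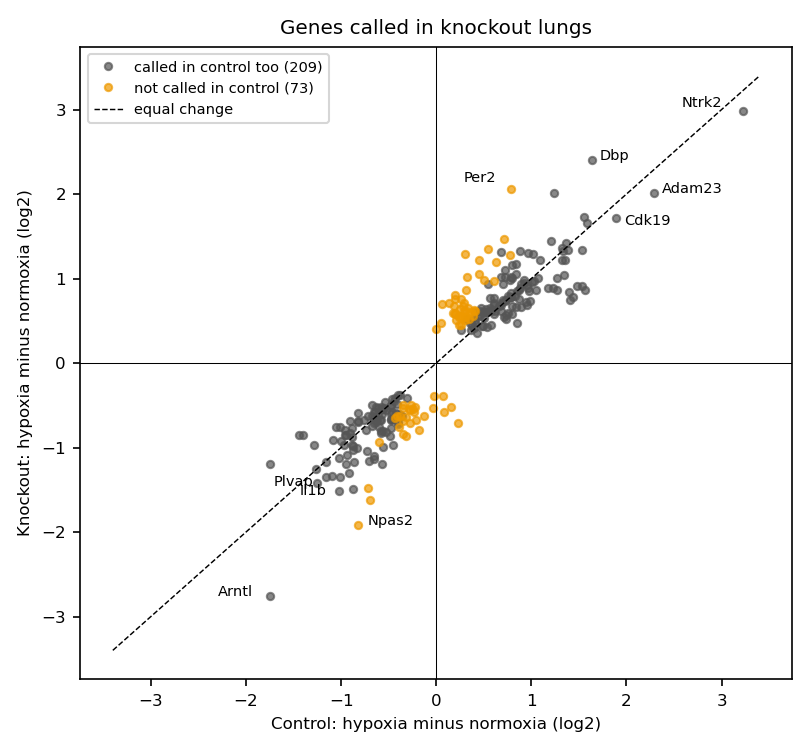
Log2 change with hypoxia in knockout (vertical axis) against control lungs (horizontal axis) for the 282 genes called in knockout lungs, split into the 209 called in control lungs too and the 73 that were not, with a dashed line at equal change. 278 of the points lie on the same side of 0 in both genotypes, and Ntrk2, Cdk19 and Adam23 lie near the line.

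Ntrk2 changed by 3.22 in control lungs, Cdk19 by 1.89, Npy1r by 1.59, Adam23 by 2.29, Plvap by -1.16 and Bmp6 by -1.02, close to their knockout values, and the adjusted interaction p of each was 0.77 or more. The interaction is the hypoxia change in knockout minus that in control, and it passed for 1 gene of 24704 (0.00405%), an unnamed gene model, Gm10566. At an unadjusted p under 0.05 there were 2037 genes (8.25%), among them 47 of the 282. Some clock genes had larger point values in knockout lungs. Per2 differed by 0.79 in control (interaction 1.27, adjusted p = 0.57), Arntl by -1.75 (interaction -1.01, adjusted p = 0.62) and Ciart by 0.68 (interaction 0.63, adjusted p = 0.57), and none passed. The normoxic control arrays were spread in Per2 and Dbp, with replicate 1 lowest.

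Other lists leaned the other way. Of 20 collagens 14 rose in control lungs, with a median of 0.64, and 8 of the 20 had an unadjusted interaction p under 0.05. Of 17 smooth muscle genes 6 rose in control lungs (median 0.36, 6 with such a p), of 13 cholesterol genes 7 rose (median 0.45, also 6) and of 19 splicing factors 18 fell (median -0.81, 8). Of the 10 nuclear noncoding RNAs, which are given as a sign of RNA quality, 5 fell in control lungs (median -0.69, 4 with such a p). Their mean by array was 6.41, 6.57 and 6.14 in normoxic and 5.77, 5.50 and 5.71 in hypoxic control lungs, without overlap. Markers of other tissues moved with the interaction too. Such a p was found for 10 of 15 adipose markers (median interaction -0.85), 6 of 16 heart markers (-0.96) and 1 of 9 brown fat markers (-0.54). Respiratory chain genes, a pathway list and not markers of another tissue, had such a p for 9 of 24 (-0.33). The adipose mean was 8.52 on hypoxic control replicate 1 and 8.79 on normoxic knockout replicate 2, against 7.26 to 7.77 on the other 10 arrays. The part of these markers in the list values was not tested. For Col4a1 the change was 1.03 in control lungs and the interaction -0.57 (adjusted p = 0.57). Edn1 differed by 0.42 in control lungs and by -0.28 in knockout lungs, an interaction of -0.70 (adjusted p = 0.57). Reg3g, an antimicrobial lectin of airway epithelium, changed by 1.96 in control lungs and differed by 0.13 in knockout lungs, an interaction of -1.83 (adjusted p = 0.57). None of these passed the test of the difference after adjustment, so a difference between the genotypes was not shown for any of them.

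Leaving out predicted genes, clones, small noncoding RNAs and olfactory receptors, the positive interactions with the smallest p-values were those of Gdap10, Gnrh1, Rab26os, Arhgef38, Tubd1 and Tbrg3, with values from 0.64 to 1.47. Of these, Gdap10 was at 4.76, 5.00 and 4.96 in normoxic and 4.72, 5.04 and 5.09 in hypoxic knockout lungs, and changed by -1.41 in control lungs. The negative ones were those of Dpy19l3, Rps3a2, Tbc1d13, Fbxo21, Cox6b1 and Bcl11b. Dpy19l3, a mannosyltransferase, was at 7.40, 7.11 and 7.25 in normoxic and 6.71, 6.68 and 6.64 in hypoxic knockout lungs, fell by 0.58 ± 0.09 there (adjusted p = 0.01, not called without hypoxic replicate 4) and differed by 0.09 in control lungs. None of these 12 passed after adjustment over all genes, the smallest adjusted p being 0.14 for Gdap10.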

How the data were processed

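Whole lung RNA was measured on 12 Affymetrix arrays, 3 in each of 4 groups. The authors deposited log2 values made with RMA, per the submitters' processing notes. The RMA version, probe annotation and filters used were not stated in these sources. Sorted values were identical on all 12 arrays, so the arrays had been brought to 1 distribution, and a change in total RNA per cell is not visible in them. Of 25428 probe sets 24705 had 1 symbol in the platform annotation and 723 had none. The probe set with the highest mean was kept per symbol, which gave 24704 genes, with no filter on low values. The array number, 3 per group, limits the precision.

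A model of 4 group means over all 12 arrays (8 residual degrees of freedom) was fitted per gene, with moderated variances, in limma 3.58.1 (R 4.3.3). There were 3 contrasts, hypoxia minus normoxia in knockout, the same in control, and their difference (the interaction). Tests were two-sided, and Benjamini-Hochberg adjustment ran over all genes. Array means of marker lists were compared by exact permutation. Promoter windows came from RefSeq.

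The members and the 55 gene lists were chosen with earlier results of these data known. Named genes were the 12 largest called increases and decreases without overlap, up to 4 members of each list by adjusted p, the 6 smallest interaction p-values in each direction, and a few genes fixed by name. Predicted genes, clones, microRNAs, small nucleolar RNAs, 5S ribosomal RNAs and olfactory and vomeronasal receptors were left out of the 12 largest and the interaction genes. Clock, Nr1d1, Nr1d2, Per3, Tef, Wee1, Hlf, Tsc22d3, Pgf, Hey2, Cd79b, Ltbp2, Fn1, Fbln5, Maoa and Hmgb1-ps9 were named after their values were seen. Alternatives changed the prior, array weights, filter, scaling, probe set rule, covariates, replicate block and the arrays used. Deviations from the group means correlated with r = -0.25 and 0.03 between same-numbered hypoxic and normoxic knockout arrays. Between arrays with unlike numbers r ran from -0.23 to 0.28. The numbers were therefore not taken as pairs, but so few pairs cannot show whether they mark a block. In normoxia the Y-linked mean on replicates 1, 2 and 4 was 2.98, 6.66 and 6.12 in knockout and 3.04, 6.69 and 6.18 in control lungs.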

Additional observations from a re-analysis of the deposited data

Results flagged for a closer look

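The difference between genotypes in the response to hypoxia passed the test for 1 gene, Gm10566, a predicted gene model. It was at 8.58, 8.68 and 8.58 in normoxic and 8.74, 8.53 and 8.84 in hypoxic knockout lungs, and at 7.74, 7.63 and 7.76 in normoxic and 8.98, 9.04 and 9.09 in hypoxic control lungs. The interaction was -1.24 on the log2 scale (limma, adjusted p = 0.017), and the normoxic knockout arrays already lay close to the hypoxic range.

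Of the 723 probe sets without a gene symbol, which entered no comparison above, 10 passed the test for hypoxia in knockout lungs when fitted with the rest, the smallest adjusted p being 0.00032 (limma).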

How the results depend on the processing

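Of 24704 genes, 282 were called for hypoxia in knockout lungs and 1 for the interaction. The knockout count was 508 with array weights and 40 with the replicate number as a block. Whether the numbers mark a block was not tested. With a marker covariate the knockout count was 168 for nuclear RNA, 166 for Y-linked, 78 for brown fat and 11 for heart markers. Of the alternatives added after seeing the data, leaving out both normoxic arrays with high Nppa gave 11 and the clock covariate 0 (limma, 1458 at an unadjusted p under 0.05). Leaving out 1 knockout array gave 71 to 148 and 1 control array 198 to 258. The other settings gave 191 (centring on ribosomal protein genes) to 337 (genes with a mean of at least 5). The interaction count was 2 with array weights and 0 to 3 with 1 array left out. It was 0 in 17 settings (limma, 1380 to 3136 genes at an unadjusted p under 0.05), 9 of them with 1 array left out, the others being ribosomal centring, the 4 marker covariates, the replicate block, the pair left out and the clock covariate. All 282 signs held in every setting that fitted all of them except the clock covariate. In the settings that leave arrays out they could not have turned, because the groups of these genes do not overlap. The clock covariate turned 16 and set Dbp at -0.46, Per2 at -0.27, Fkbp5 at -0.24, Bhlhe41 at -0.18, Npas2 at 0.83, Pfkfb3 at -0.021 and Per1 at -0.20. That covariate separates all hypoxic from all normoxic arrays and is built from Dbp and Arntl. Per1, Per2, Npas2 and Bhlhe41 are on the clock and output lists, so their turns and that of Dbp are not a separate result. The cause of the other shifts was not tested. With 3 arrays per group and signal near the lower end of the range for some genes, an uncalled gene is not shown to be unchanged.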
